A study of Mus musculus with 2 samples.

Results

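The genes described here are the 6 mouse loci that encode miR-124 (Mir124a-1, Mir124a-2 and Mir124a-3) and miR-9 (Mir9-1, Mir9-2 and Mir9-3), out of 2202 miRNA genes in the deposited tables. They were chosen by name, as the genes whose Ensembl identifiers carry those symbols in GENCODE M21, and all 6 were found. MicroRNA-seq libraries had been made from hippocampus of male B6CASTF1/J mice, the F1 hybrid of C57BL/6J and CAST/EiJ, at 2 months of age. No treatment is named, there was 1 group of 2 biological replicates, and no comparison between conditions could be made. The labels give the replicates separate biosamples but the same donor entry, so n = 2 counts these samples, which may not be separate animals. Fragment sizes are labelled as under 30 nt.

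MicroRNAs are cut from hairpin transcripts, and each loaded strand pairs through its seed (bases 2 to 8) with target messengers and lowers their output. miR-124 is a hallmark microRNA of differentiated neurons, where it represses non-neuronal transcripts such as Ptbp1, a splicing repressor. miR-9 acts in neural progenitors and in neurons, and among its known targets are Nr2e1, a progenitor transcription factor, and Rest, a repressor of neuronal genes. Both are made from several loci whose mature products have the same sequence, so a read of the mature microRNA alone does not say which locus made it.

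The mature miR-9 sequences are shown because all 3 loci encode them without a difference. They come from RefSeq (GRCm38.p6), 5′ to 3′, with the seed in capitals.
miR-9-5p: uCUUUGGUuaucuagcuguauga
miR-9-3p: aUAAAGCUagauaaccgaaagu
miR-9-5p has 23 nt and miR-9-3p has 22 nt. The arms pair with each other in the stem, and a run of 12 nt of miR-9-5p is the reverse complement of miR-9-3p. None of the other mature microRNAs in the RefSeq table of 1679 names carries either seed. The RefSeq table held 3 of the 6 genes, which were Mir9-1, Mir9-2 and Mir9-3. Mir124a-1, Mir124a-2 and Mir124a-3 are described by name.

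The 3 hairpins are shown because the bases beside the arms are what tells the loci apart. Both mature arms are in capitals, and the coordinates are those of mm10, all on the plus strand.
Mir9-1, chr3:88215598-88215686: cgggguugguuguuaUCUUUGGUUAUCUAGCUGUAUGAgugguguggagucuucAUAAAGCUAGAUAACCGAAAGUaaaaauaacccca
Mir9-2, chr13:83738814-83738885: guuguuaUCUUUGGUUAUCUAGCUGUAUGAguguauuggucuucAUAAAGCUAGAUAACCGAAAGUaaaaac
Mir9-3, chr7:79505264-79505353: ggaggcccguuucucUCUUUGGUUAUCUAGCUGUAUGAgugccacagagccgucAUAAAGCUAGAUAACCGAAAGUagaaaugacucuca
Mir9-1 and Mir9-2 share 33 nt without a break, made of miR-9-5p, the 7 bases before it and the 3 bases after it. They share a run of the same length around miR-9-3p, with the 6 bases before it and the 5 bases after it. Mir9-3 shares 26 nt with each of them, since the base just before its miR-9-5p already differs.

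All 6 hairpins overlap long noncoding RNA genes on the same strand. Mir124a-1 (ENSMUSG00000065597.1, chr14:64590657-64590741) overlaps an exon of Mir124a-1hg, Mir124a-2 (ENSMUSG00000093073.1, chr3:17795662-17795770) an exon of Mir124-2hg, and Mir124a-3 (ENSMUSG00000065454.2, chr2:180894040-180894107) an exon of Gm27032. Mir9-1 (ENSMUSG00000106493.1) lies in an intron of Gm3764, Mir9-2 (ENSMUSG00000065424.2) overlaps an exon of C130071C03Rik, and Mir9-3 (ENSMUSG00000093238.1) lies in an intron of Mir9-3hg. A further annotated miRNA gene, Gm25641, lies opposite Mir9-1.

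The libraries held 10003856 reads in replicate 2 and 6441333 in replicate 1, of which 3414105 and 2322520 were counted on miRNA genes. Levels are given as CPM, the same-strand count of a gene per 1000000 miRNA-gene counts of its library, and are not scaled by length because each read is 1 small RNA. Reads set aside as multimapping numbered 4604517 in replicate 2 and 2743569 in replicate 1, or 1.35 and 1.18 for each miRNA-gene count. No such read is in any gene's count, and the tables do not say from which sequences these reads came. For the labelled brain tissue, all 8 listed neuronal marker genes were detected, at sums of 48284 and 33704 CPM in replicates 2 and 1. All listed oligodendrocyte, endothelial, mural and erythrocyte markers were detected too, against 18.2% of all 2202 miRNA genes. So were 4 of 5 microglia and leukocyte markers and 6 of 7 choroid plexus and epithelial markers. Detection alone therefore does not single out neurons. Listed oligodendrocyte markers summed to 2683 and 4367 CPM, microglia and leukocyte markers to 1598 and 1260 CPM, and choroid plexus and epithelial markers to 1117 and 1166 CPM. Endothelial Mir126a stood at 12474 and 14889 CPM, the mural and smooth muscle genes at 6935 and 6456 CPM and the erythrocyte genes at 1149 and 1922 CPM. The part of any other cell type in the levels below was not tested.

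miR-124, known as one of the leading microRNAs of neurons, was nearly absent from the counts placed on genes, while miR-9 was present at a moderate level that came mostly from Mir9-3. The 3 miR-124 loci together held 16 counts in replicate 2 and 7 in replicate 1, or 4.69 and 3.01 CPM. The 3 miR-9 loci together held 396 and 261 counts, or 116 and 112 CPM. The miR-9 sum was therefore almost the same in both libraries, at 114 ± 2.55 CPM (SD, n = 2), and the miR-124 sum was 3.85 ± 1.18 CPM (SD, n = 2). With 0.5 added to each summed count, the miR-9 sum exceeded the miR-124 sum 24.03-fold in replicate 2 and 34.9-fold in replicate 1. The mean log2 ratio of 4.86 was larger than 2 SD of the replicates (0.759), and no p is given because 2 libraries allow no two-sided sign-flip p under 0.5.

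The multimapping row gives a scale for these counts. For each miR-9 count there were 11628 multimapping reads in replicate 2 and 10512 in replicate 1. For each miR-124 count there were 287782 and 391938. Such a ratio is large for any gene at these levels. The miR-9 sum, taken over 3 loci, lay above the median single detected gene at 87.0 CPM. Of its loci only Mir9-3 did so, at a mean of 96.4 CPM. How many of the multimapping reads were miR-9 or miR-124 was not measured, so the sums above describe placed reads and not the amount of either microRNA in the tissue.

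Mir9-3 was the leading locus by a wide margin. It had 317 counts in replicate 2 and 232 in replicate 1, or 92.9 CPM (Wilson 95% interval 83.2 to 104) and 99.9 CPM (87.8 to 114). Its intervals in the 2 libraries overlapped. With a mean of 96.4 ± 4.98 CPM (SD, n = 2) it ranked 198 among the 401 detected genes, close to their median of 87.0 CPM.

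Mir9-1 had 69 counts in replicate 2 and 22 in replicate 1, or 20.2 CPM (interval 16.0 to 25.6) and 9.47 CPM (6.26 to 14.3). Its intervals in the 2 libraries did not overlap, and it averaged 14.8 ± 7.59 CPM (SD, n = 2), the widest spread of the members in absolute CPM but not relative to the mean, where the sparse Mir124a-3 and Mir124a-2 spread more. These counts exist in the strand-specific column alone: where both strands were counted together Mir9-1 had 0 in both libraries. The same 69 and 22 reads appear as opposite-strand counts of Gm25641, which itself had 0 counts on its own strand.

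Mir9-2 had 10 counts in replicate 2 and 7 in replicate 1, or 2.93 CPM (interval 1.59 to 5.39) and 3.01 CPM (1.46 to 6.22). It was the lowest of the 3 miR-9 loci in both libraries. Its mean of 2.97 ± 0.0601 CPM (SD, n = 2) lay just above the 2 CPM used to call a gene detected. Both intervals reached below that level, so the small SD does not reflect the counting error.

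Mir124a-1 led the miR-124 loci, with 11 counts in replicate 2 and 6 in replicate 1, or 3.22 CPM (interval 1.80 to 5.77) and 2.58 CPM (1.18 to 5.64). Mir124a-3 had 5 counts in replicate 2 and 0 in replicate 1, where a count of 0, taken to allow 3 counts, allows up to 1.29 CPM. Mir124a-2 had 0 counts in replicate 2, which by the same rule allows up to 0.879 CPM, and 1 count in replicate 1. The intervals of Mir124a-1 and Mir124a-3 overlapped in both libraries, as did those of Mir124a-3 and Mir124a-2. Those of Mir124a-1 and Mir124a-2 overlapped in replicate 1 but not in replicate 2, where the Wilson interval of Mir124a-2 ended at 1.13 CPM. Ordered by mean level, Mir9-3 stood above Mir9-1 and Mir9-1 above Mir9-2 with no overlap of intervals in either library, though in replicate 1 Mir9-1 began at 6.26 CPM where Mir9-2 ended at 6.22 CPM. Mir9-2 and Mir124a-1, next to each other at 2.97 and 2.90 CPM, could not be told apart.

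**Figure D1:**
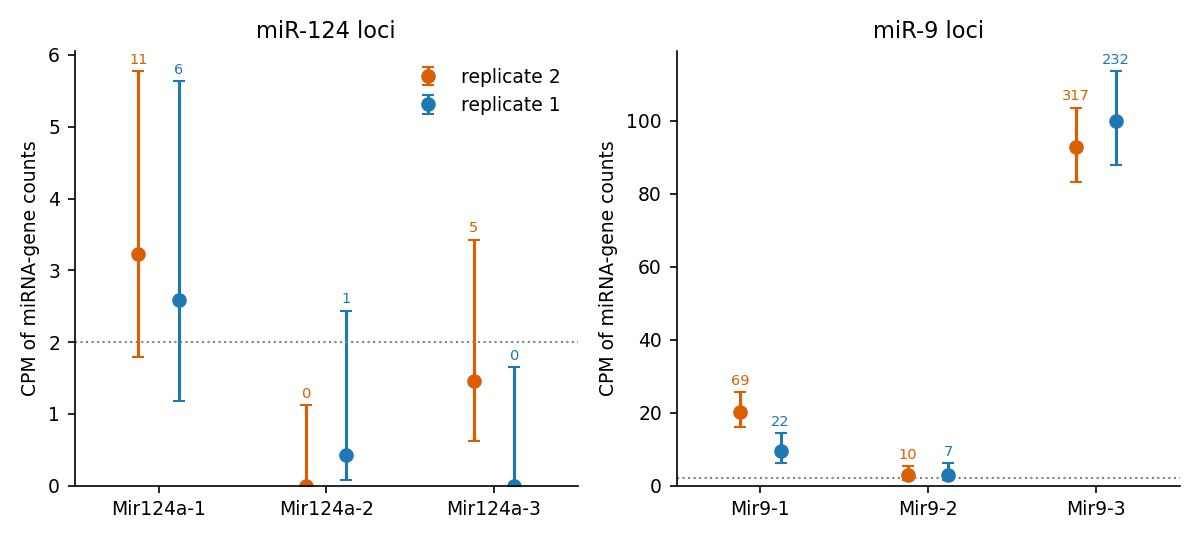
CPM of each miR-124 locus (left) and miR-9 locus (right) in replicate 2 (orange) and replicate 1 (blue), with Wilson 95% intervals, the count above each point and a dotted line at 2 CPM, on separate y scales. Mir9-3 stands near 96.4 CPM in both libraries, while the miR-124 loci hold between 0 and 11 counts.

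With detection set at 2 CPM in each library, 4 of the 6 members were detected, namely Mir9-1, Mir9-2, Mir9-3 and Mir124a-1, against 18.2% of all 2202 miRNA genes. Mir124a-2 and Mir124a-3 were not. Reads on the opposite strand were rare, with 2 for Mir9-2 in replicate 2, 1 for Mir124a-3 in replicate 1 and 0 for the rest. Among all 2202 genes, Mir9-1 ranked 289, Mir9-2 384 and Mir124a-1 387 by mean CPM, and Mir124a-3 and Mir124a-2 ranked 522 and 631.

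The 2 libraries were compared gene by gene by edgeR's TMM scaling and a two-sided exact binomial test, with p-values adjusted by Benjamini-Hochberg over the 401 detected genes. Of the 4 members tested, Mir9-1 differed beyond counting error, and it was higher in replicate 2; the background was 50.9% of detected genes that differed in either direction and 28.2% that were higher in replicate 2. Mir9-1 was 2.06-fold higher in the replicate 2 library (log2 ratio 1.05, adjusted exact binomial p = 0.00408). Mir9-3 had a log2 ratio of -0.13 (adjusted exact binomial p = 0.434), Mir9-2 of -0.10 (p = 1) and Mir124a-1 of 0.24 (p = 0.875). The test sets 1 library against 1 library and weighs the gap against counting error alone, so it does not show that the samples differ beyond the spread between samples, and it says nothing of a condition.

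Within the miR-9 family the loci took unequal and partly shifting shares. Mir9-3 gave 80.1% of the family's counts in replicate 2 (interval 75.8 to 83.7) and 88.9% in replicate 1 (84.5 to 92.2). Mir9-1 gave 17.4% (14.01 to 21.5) and 8.43% (5.63 to 12.4). Mir9-2 gave 2.53% (1.38 to 4.59) and 2.68% (1.31 to 5.43), and so held its place while the share of Mir9-1 moved against that of Mir9-3. The Mir9-3 share was lower in the replicate 2 library by Fisher's exact test, two-sided (odds ratio 0.502, p = 0.00519 adjusted over the 2 families). This is the Mir9-1 difference seen as a share and not a separate result, and it too covers counting error only. With both strands counted together, where Mir9-1 is at 0, the shares were 96.4% and 97.1% and the adjusted exact p was 1. For miR-124 the share of Mir124a-1 was 68.8% in replicate 2 (44.4 to 85.8) and 85.7% in replicate 1 (48.7 to 97.4), a difference that 16 and 7 counts could not resolve (adjusted Fisher's exact p = 0.621).

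The hairpins of a family shared part of their sequence and differed elsewhere. Each hairpin was cut into all its stretches of 22 nt, and a stretch was called unique if no other annotated miRNA hairpin held it on either strand, hairpins at the same position on the opposite strand set aside. Mir9-3 had 60 unique stretches of 69 (87.0%), Mir9-1 44 of 68 (64.7%) and Mir9-2 27 of 51 (52.9%). Mir124a-2 had 62 of 88 (70.5%), Mir124a-1 43 of 64 (67.2%) and Mir124a-3 27 of 47 (57.4%). For comparison, 83.0% of the 401 detected miRNA genes were unique over their whole hairpin. Every miR-124 stretch that was shared was shared within its own family, and pairs of miR-124 hairpins had 31 or 32 nt in common without a break.

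**Figure D2:**
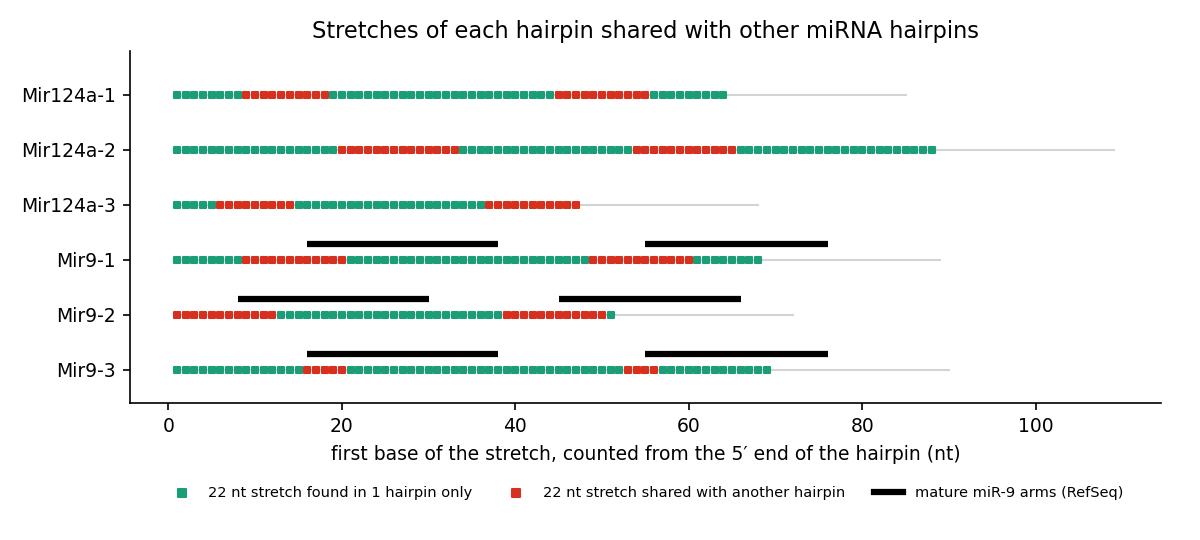
First base of every 22 nt stretch along each hairpin (nt from its 5′ end), green where found in 1 miRNA hairpin only and red where shared, with the mature miR-9 arms as black bars and the rest of each hairpin as a grey line. Mir9-3 has 9 shared stretches, against 24 in Mir9-1 and 24 in Mir9-2.

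In the miR-9 family the shared stretches lay on the mature arms. Read from the annotated start of miR-9-5p, a stretch had to reach 27 nt, 4 more than the mature sequence, before it was unique to any of the 3 hairpins. From the start of miR-9-3p it was 24 nt for Mir9-3, and 28 nt for Mir9-1 and for Mir9-2. Mir9-3 also parted from the other hairpins 1 base before miR-9-5p, where Mir9-1 and Mir9-2 had the same base.

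A further measure, chosen after the counts were seen, took windows of 20 to 24 nt that start within 2 nt of a mature start. All windows weighed the same, and how many reads start at such offsets was not measured. Mir9-3 had 16 of 50 such windows unique to it, 10 on miR-9-5p and 6 on miR-9-3p. From the annotated start itself, none was unique on miR-9-5p, and on miR-9-3p only that of 24 nt. The rest of the 16 start at an offset. Mir9-1 had 0 of 50 and Mir9-2 had 0 of 50. Among 335 detected genes with a matching RefSeq hairpin, these 2 were the only ones with no unique window, while 283 (84.5%) had all of them unique. Of all 955 genes with such a match, detected or not, 33 (3.46%) had no unique window. The miR-124 loci, absent from the RefSeq table, could not be assessed. The locus with the unique windows was also the locus with the most counts, but this is an observation on 3 loci. Uniqueness was set against annotated hairpins, not against the whole genome, and its part in the counts was not tested.

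**Figure D3:**
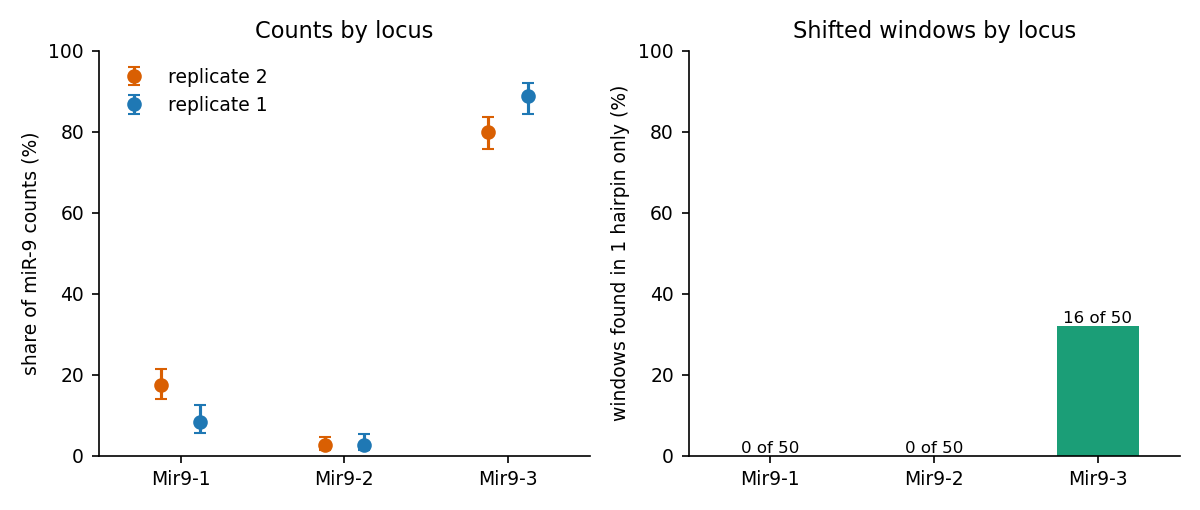
Left, share of miR-9 counts (%) at each locus in replicate 2 (orange) and replicate 1 (blue) with Wilson 95% intervals; right, share of windows of 20 to 24 nt around the mature starts found in 1 hairpin only (%). Mir9-3 holds 80.1% and 88.9% of the counts and has 16 of 50 unique windows, against 0 of 50 at Mir9-1 and at Mir9-2.

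Among families made at several numbered loci, most had equal shares of unique windows and could not show such an order, and the rest went either way. Of 22 such families with a detected locus and RefSeq matches, 13 had equal shares of unique windows at all their loci, and the leading locus had the most in 4 and another locus the most in 5. Mir9 was among the 4, with Mir129, Mir138 and Mir29b. Among the 22, only Mir9 had a locus without a unique window. The gap was small in Mir29b (62% and 61.2%) and in Mir24 (50% and 51.0%), where the other locus had the most. Whether unique windows go with counts across families was not tested. In the Mir128 family, also expressed in neurons, both loci had 80% of windows unique.

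By level, miR-9 stood in the lower part of the detected multi-locus families and miR-124 at their end. Of 53 families with at least 2 numbered loci, 24 had a detected locus, and the miR-9 sum ranked 16 and the miR-124 sum 24 among them. The 10 families with 3 or more loci included 2 with a detected member, and these were Mir9 and Mir124a. The miR-9 sum was 0.582% of the Mir128 sum in replicate 2 and 2.00% in replicate 1, and 27.7% and 21.7% of the sum of the Mirlet7a loci. The miR-124 sum was 0.0235% and 0.0535% of the Mir128 sum and 1.12% and 0.582% of that of Mirlet7a. Each of these ratios was below 1 by more than 2 SD of its log2 value over the replicates.

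**Figure D4:**
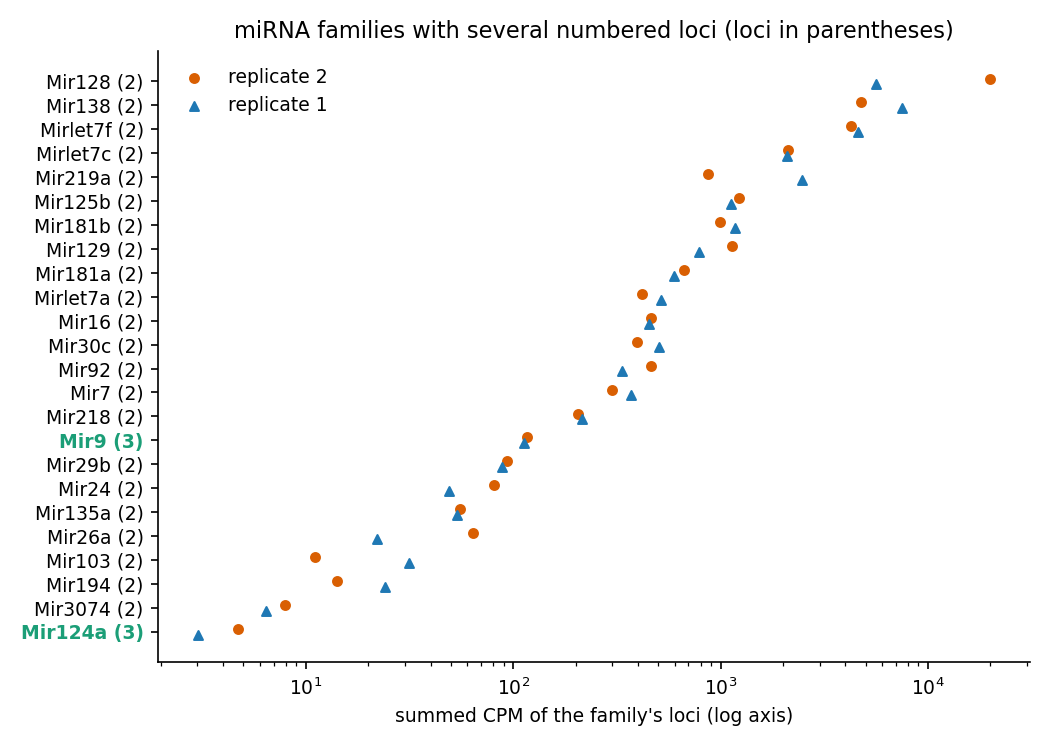
Summed CPM (log axis) of the 24 families with several numbered loci and a detected locus, in replicate 2 (orange circles) and replicate 1 (blue triangles), ordered by their mean, with the number of loci in parentheses. Mir9 (116 and 112 CPM) is 16th and Mir124a (4.69 and 3.01 CPM) is 24th.

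The 5 listed neuronal genes made at 1 locus were all higher than the miR-9 sum, by widely different amounts. Mir132, induced by neuronal activity, had 10719 CPM in replicate 2 and 11112 in replicate 1, and the miR-9 sum amounted to 1.08% and 1.01% of it. Mir137, which acts in neuronal maturation, had 12170 and 8697 CPM, and the miR-9 sum was 0.953% and 1.29% of it. The miR-124 sum was 0.0437% and 0.0271% of Mir132, and 0.0385% and 0.0347% of Mir137. The smallest of these single-locus genes, Mir212, had 296 and 258 CPM, so that the miR-9 sum reached 39.1% and 43.5% of it. It was 27.4% and 22.1% of Mir134, and 9.65% and 27.4% of Mir153. All of these ratios were below 1 by more than 2 SD of their log2 values.

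A list of 20 other miRNA genes of neuronal differentiation and maturation was detected in full, against 18.2% of all 2202 miRNA genes. The list was chosen with earlier results of these data known, so its detection and level are a description only. Its median was 632 CPM, beside 87.0 CPM over all detected genes, and it was led by Mirlet7b at 107896 and 101513 CPM in replicates 2 and 1, with Mir132, Mir128-1 and Mir137 next. Mir128-1 had 16906 and 4518 CPM. The miR-9 sum was 0.0724% and 0.0813% of the list sum, and the miR-124 sum 0.00292% and 0.00218%. Between the libraries 9 of the 20 were higher and 5 lower in replicate 2 by the exact binomial test, where the background was 28.2% and 22.7%.

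**Figure D5:**
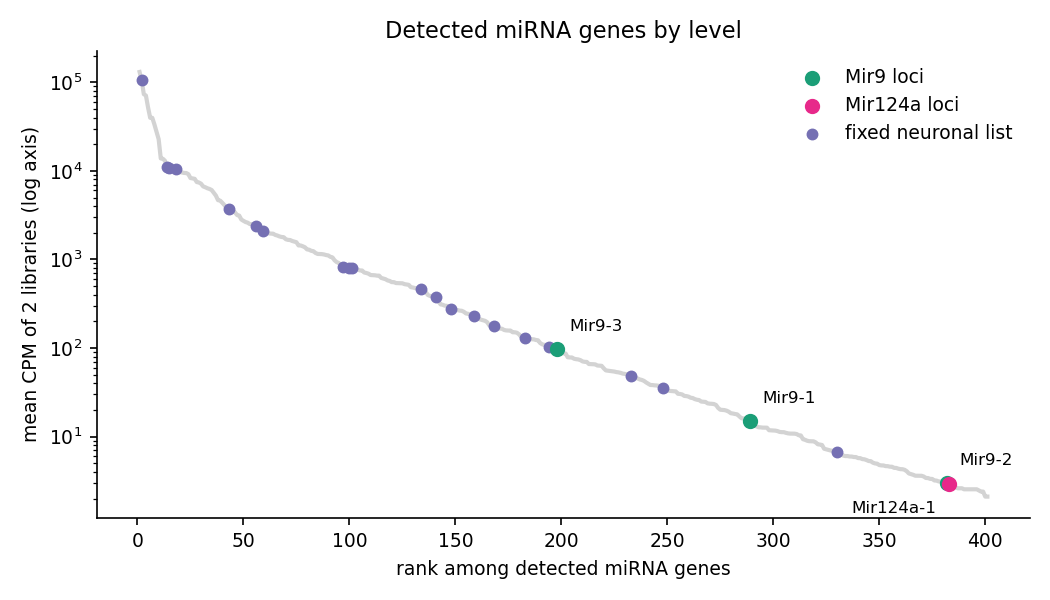
Mean CPM (log axis) of the 401 detected miRNA genes by rank (grey line), with the Mir9 loci in green, Mir124a-1 in pink and the fixed neuronal list in purple. Mir9-3 lies at rank 198, Mir9-1 at 289, and Mir9-2 and Mir124a-1 near the end at 381 and 383.

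The genes most like the leading loci were found by the Euclidean distance of log2(CPM + 1) over the 2 libraries, which reflects level far more than pattern. Mir9-3 lay nearest to Mir7-1 (distance 0.144), at 100.5 and 106 CPM in replicates 2 and 1, and next to Mir491 (0.227) and Mir412 (0.251). Mir124a-1 lay nearest to Mir6240 (0.164), Mir1947 (0.185) and Mir1955 (0.187), all of them between 2.15 and 3.81 CPM.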

How the data were processed

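The deposited tables hold raw counts of reads per miRNA gene, made by the authors on assembly mm10 with GENCODE M21, per the deposited sample descriptions. The aligner, counting program and settings are not given in the sources used here. Every table has 3 count columns (both strands, gene strand, opposite strand), their meaning read from the values. Unmapped, multimapping, no-feature and ambiguous reads, in 4 rows without a gene, were left out of library sizes and held 65.9% and 63.9% of reads in replicates 2 and 1. Products of both hairpin arms are summed per gene. All 2202 identifiers matched GENCODE M21.

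Same-strand counts were scaled to CPM over miRNA genes. Intervals are Wilson 95% intervals, and a count of 0 allows 3 counts. Both cover counting error only, since reads without molecular identifiers are not independent molecules. TMM factors (0.991 and 1.01 in replicates 1 and 2) came from edgeR 4.0.16 in R 4.3.3 over detected genes, and DESeq2 1.42.0 size factors were an alternative. Exact binomial and Fisher's tests used scipy 1.17.1. In the ratios between libraries and of miR-9 to miR-124, 0.5 was added to counts. Ratios to other genes, families and lists had nothing added. The binomial test was checked on simulated counts that held counting error only, so the check does not cover spread between samples. The libraries' counts differed far beyond sampling noise (chi-square 132901, 714 degrees of freedom), so they are not 1 library deposited under 2 names. Ratios of sums were called larger than the replicate spread when they had the same sign in both libraries and a mean log2 above 2 SD. Multi-locus families are symbols ending in a copy number that share their stem with at least 1 other gene. The genes named are the members, the 3 genes nearest to each leading locus, up to 4 leading genes of each fixed list, and detected families of 3 or more loci. Mir128, Mirlet7a, Mir129, Mir138, Mir29b, Mir24, Mir212 and the marker genes named beside them were added. Listed symbols with an older form were matched through RefSeq synonyms. Members and lists were chosen with earlier results of these data known. No whole genome was used.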

Additional observations from a re-analysis of the deposited data

How the results depend on the processing

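Levels depend on the denominator. Per 1000000 of all reads the miR-124 sum was 1.34 and the miR-9 sum 40.1, and with the 5 most abundant genes left out of the total they were 6.73 and 201 CPM. With both strands counted together the miR-9 sum was 108 CPM. Of the 6 members, 2 were detected per 1000000 of all reads, 2 at a minimum of 5 CPM and 3 with both strands counted together, where Mir9-1 drops out, in place of 4. The difference in the Mir9-3 share between replicates 2 and 1 was -8.84 percentage points, and with both strands counted together it was -0.72 (adjusted Fisher's exact p = 1), since Mir9-1 has 0 counts there. With 1 library left out, the miR-9 sum ranged from 112 to 116 CPM, the miR-124 sum from 3.01 to 4.69 CPM, the log2 ratio of miR-9 to miR-124 from 4.59 to 5.12, and multimapping reads per miRNA-gene read from 1.18 to 1.35. The Mir9-1 difference between libraries passed the test under the library-size and low-count alternatives where it was tested (adjusted exact binomial p from 0.00298 to 0.00707). It was not tested at 10 CPM or more or with both strands together, where the locus falls out. Starts within 1 nt or 3 nt of the mature start, settings chosen after seeing the data, gave Mir9-3 26.7% and 44.3% unique windows in place of 32%, and 3 nt gave Mir9-1 and Mir9-2 1.43% each. Over all alternatives, 27 for main results and 43 for single values kept their direction and size within the replicate spread or the same side of the threshold. For main results, 7 alternatives moved by more than that, all for family sums or the number of detected members. For the Mir9-3 share, 1 alternative was weaker. For single values, 15 moved by more than that, all levels of members or shares of unique windows. Alternatives with 1 library left out were counted as kept by construction. Such a value is that of the other library, which always lies within 1 SD of the mean of 2. They are therefore no check of stability, and Mir124a-2 and Mir124a-3 each fell to 0 CPM in 1 of them. Counted as kept, though without a replicate spread, were 3 detected members in place of 4 and 184 genes that differed between libraries in place of 204. Both came from counting both strands together. No paired analysis was possible because there is 1 group. Depth limits the miR-124 loci, where 1 count is 0.293 CPM in replicate 2 and 0.431 CPM in replicate 1.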
